A study of Mus musculus with 10 samples.

Results

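Solute carrier genes (Slc genes) encode membrane transporters, and they were followed here through maps of N6-methyladenosine (m6A) on RNA from 3T3-L1, a line of mouse fibroblasts that hormones turn into fat cells. The members were all genes of the GENCODE M21 annotation of the mm10 mouse genome whose symbol is Slc followed by digits, a letter and digits. There were 361 of them, all protein-coding, among 21951 protein-coding genes. A peak was counted for a gene when both of its ends lay in exons of 1 transcript of that gene on the same strand, whichever symbol the deposited list gave it.

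In methylated RNA immunoprecipitation and sequencing (MeRIP-seq), RNA fragments caught by an m6A antibody (the IP) are set against the fragments before the catch (the input), and a peak is a stretch in excess. There were 10 libraries, an IP and an input for each of 5 conditions. Cells in the solvent DMSO were harvested growth-arrested, as preadipocytes (DMSO Pre), in mitotic clonal expansion (DMSO MCE) and after differentiation (DMSO Diff, labelled as mature adipocytes). Cells given 20 µM rhein, a plant anthraquinone, from day 0 to day 3 of induction were taken at the latter stages (rhein MCE and rhein Diff). All of them were 3T3-L1 cells of 1 line, with no change to any gene. The rhein lists were nearly the same list. All 33 Slc peaks of rhein MCE stood in rhein Diff with identical spans, as did 3067 of its 3069 peaks of all genes, and the Slc scores differed by a median of 0.00441. They were therefore counted as 1, under the name rhein MCE, which leaves 4 distinct lists and cannot show which stage the rhein values belong to.

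With 1 IP per condition there was no spread between replicates, so no difference was tested, and each share carries a 95% Wilson interval, which covers counting error alone. For shares of peaks the interval takes each peak as independent, although 1 gene can hold several. Unless a list is named, values for the 4 lists are given in the order DMSO Pre, DMSO MCE, DMSO Diff and rhein MCE (list order). The lists hold no read numbers, so the depth behind a peak is unknown. A gene without a peak may lack methylation, or may have too few reads for a call. The labelled stage could not be read from its marker genes either. No exonic peak was listed in any of 8 adipocyte markers in any list, while 4, 3, 4 and 2 of 6 preadipocyte and fibroblast markers had one in DMSO Pre, DMSO MCE, DMSO Diff and rhein MCE. Of all protein-coding genes 6.89%, 12.5%, 6.69% and 7.45% had one, so a set of 8 without a peak says little about the cells.

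Solute carriers move sugars, amino acids, nucleotides, metals and ions across the cell surface and the membranes of organelles, mostly along or coupled to a gradient rather than by burning ATP. In fat cells they are best known through glucose uptake, where Slc2a1 (GLUT1) carries the basal flux and Slc2a4 (GLUT4) moves to the surface on insulin. The m6A mark is written on nascent mRNA by the METTL3 and METTL14 complex at short motifs, of which GGAC is a common core, and it is commonly found in long last exons near the stop codon. Demethylases such as FTO can remove it, and reader proteins that bind it alter the decay or translation of the RNA.

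Where the same stretch of a solute carrier mRNA was called again and again, the RNA itself can be shown. The 10 windows below are each centred on a GGAC in exonic sequence of GENCODE M21 common to the peaks of 3 distinct lists, or, for Slc35e3, to a span given identically in 2 lists. The bases at a window's ends can lie outside the common stretch. Each is 30 bases of the transcript strand, 5′ to 3′, with the GGAC in capitals. Each shows 1 candidate place for the mark in a stretch that the recurrent calls share, namely the GGAC nearest the middle of that stretch. Several stretches held more than 1 GGAC, up to 5 in the first of Slc2a1, so a window is not the only candidate. Of the 13 places called in 3 or 4 lists, those of Slc35e1, Slc39a1 and the 3′ UTR of Slc35e3 held no GGAC in their common bases, and that of Slc15a3 is left out because its gene is uncertain. The letters are a description, and these data do not resolve which base was methylated.
Slc5a3, coding, chr16:92079144-92079173, plus strand: gatcctaaacattGGACtttttgctgtgtg
Slc2a1, 3′ UTR, chr4:119136835-119136864, plus strand: gacctatggccaaGGACacactaataccga
Slc2a1, 3′ UTR, chr4:119137111-119137140, plus strand: aacaccatgagaaGGACctcggaggctgag
Slc35e3, 5′ UTR, chr10:117746303-117746332, minus strand: cctgtctccggccGGACcgtggagcgggcg
Slc35b3, coding, chr13:38932772-38932801, minus strand: atgaaaaagtcaaGGACgttggcacagact
Slc38a10, coding, chr11:120105500-120105529, minus strand: gagcagaagctaaGGACacaaaatccaggc
Slc38a10, 3′ UTR, chr11:120104885-120104914, minus strand: cttatgttcccagGGACtggtatctaagtc
Slc39a14, coding, chr14:70310166-70310195, minus strand: agctacagaacggGGACctggatcacatga
Slc39a14, 3′ UTR, chr14:70306620-70306649, minus strand: agccagtggcattGGACatcgggctctggg
Slc39a14, 3′ UTR, chr14:70305574-70305603, minus strand: attcttgaggtcaGGACtgcagacgtcatt

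In the coding window of Slc5a3 the adenosine of GGAC lay 51 bases before the last base of the coding sequence (CDS), and in that of Slc35b3 it lay 17 bases before it. In the first 3′ UTR window of Slc39a14 it lay 35 bases past the end of the CDS, and in that of Slc38a10 it lay 101 bases past it. These windows sit around stop codons, while those of Slc2a1, at 407 and 683 bases past the CDS, lie farther into the 3′ UTR.

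The first question was how many solute carrier mRNAs carried a listed peak at each stage. In DMSO Pre, 14 of 361 Slc genes did (3.88%, interval 2.32 to 6.40), against 6.89% of all protein-coding genes. In DMSO MCE there were 34 (9.42%, 6.82 to 12.9), against a background of 12.5%. DMSO Diff had 19 (5.26%, 3.40 to 8.07), against 6.69%, and rhein MCE had 18 (4.99%, 3.18 to 7.74), against 7.45%. The share of Slc genes was thus below the background in each list, and in DMSO Pre the interval ended below it. Over the 4 distinct lists 47 Slc genes had a peak (13.02%, 9.93 to 16.9), against 16.6% of coding genes. ABC transporter genes, taken by symbol alone (Abc, a letter and digits), had 4 of 46 with a peak in any list (8.70%, 3.43 to 20.3). Tmem genes, a mixed set of membrane proteins, had 25 of 164 (15.2%, 10.5 to 21.5). The intervals of these families and of the Slc genes overlapped. DMSO MCE had the most Slc genes, and it was also the longest list, with 5128 peaks against 2824, 2944 and 3069 in DMSO Pre, DMSO Diff and rhein MCE. When each list was cut to its 2824 highest scores, DMSO MCE kept 24 Slc genes, with 14, 18 and 17 in the other lists.

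**Figure D1:**
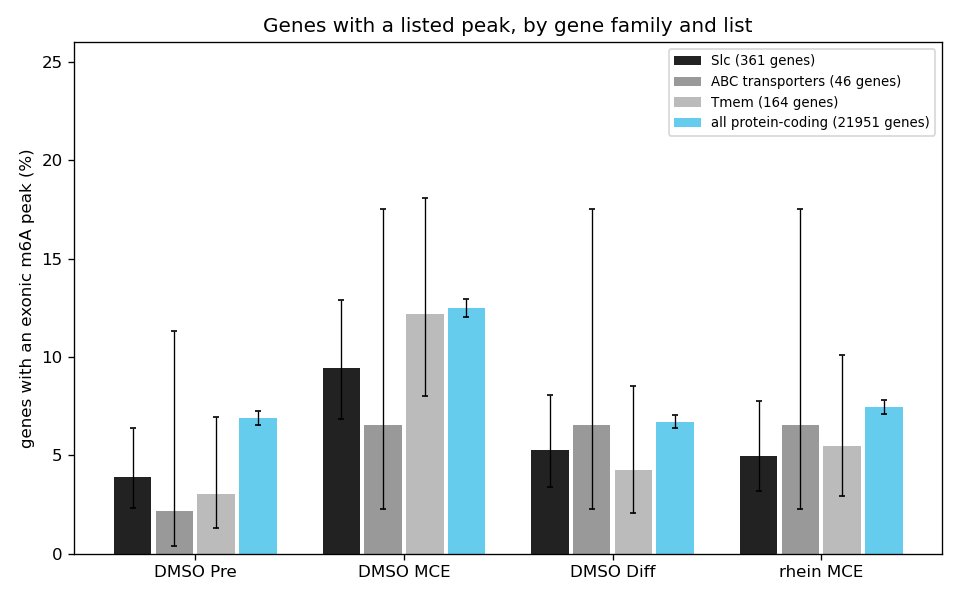
Share of genes with an exonic m6A peak (percent) in the 4 distinct lists, for Slc genes, ABC transporter genes, Tmem genes and all protein-coding genes. Bars are shares and lines are 95% Wilson intervals. The Slc bar is below the bar of all protein-coding genes in each list, with 9.42% against 12.5% in DMSO MCE.

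In all, 141 Slc peaks were listed, namely 22, 55, 31 and 33 in list order. The lists give 1 value per peak, named in its header as a log2 fold change but running like minus log2 of an adjusted p-value, and it is called the score here. A higher score means a more secure call in its own list, not more methylation. Of the 141 Slc peaks, 4 (2.84%) passed a score of 33.2, which would be an adjusted p-value of 1e-10 from the peak caller exomePeak2: 1, 0, 1 and 2 in list order, out of 68, 96, 102 and 151 such peaks of all genes. These were 2.99% of all peaks, so the share of Slc peaks was close to that of the lists. The median Slc score was 6.26, 7.27, 7.79 and 7.03 in these lists, against 7.82, 7.18, 8.25 and 7.96 for all peaks.

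Of 32 sugar carriers 2 had a peak (6.25%, 1.73 to 20.1, against 16.6% of coding genes), and both had one in every list and together held 18 of the 141 peaks. Slc5a3, the sodium/myo-inositol cotransporter that cells use against osmotic stress, held 5, 2, 1 and 1 peaks in list order. The gene lies at chr16:92058322-92087473 on the plus strand, and all 9 peaks were in its second and last exon, which is 10754 bases long. The peak over its stop codon had the highest Slc score of DMSO Pre, 72.5, which was rank 18 of 2824. The same place scored 30.7 in DMSO MCE (rank 110 of 5128) and 15.4 in DMSO Diff (rank 358 of 2944), and it was not in the rhein list. The only rhein peak in the gene, chr16:92078184-92078383, lay inside the CDS with a score of 7.02. It overlapped a DMSO Pre peak of score 16.4 that had no match in the other DMSO lists. All Slc5a3 peaks carried the symbol Mrps6 in the lists, a mitochondrial ribosome gene whose span contains Slc5a3, but no exon of Mrps6 held both ends of any of them.

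Slc2a1, which encodes the GLUT1 glucose transporter (chr4:119108711-119137983, plus strand), held 1, 4, 1 and 3 peaks in DMSO Pre, DMSO MCE, DMSO Diff and rhein MCE. Of these 9 peaks, 8 were in the 3′ UTR of its last exon and 1 in the CDS. The place around the first Slc2a1 window was called in DMSO Pre (score 6.08), DMSO MCE (8.16) and rhein MCE (5.37), with the same span in the latter lists, and it was not in DMSO Diff. The place around the second window was called in DMSO MCE (6.67), DMSO Diff (5.35) and rhein MCE (5.17). Another place, at or just past the stop codon, was called in DMSO MCE (5.76) and rhein MCE (7.33) and in neither of the other lists. The scores at these places ran from 5.17 to 8.16, in lists whose lowest scores were between 4.19 and 4.32. Slc2a4, the insulin-responsive GLUT4, had no peak in any list.

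Slc35e3, an orphan member of the nucleotide sugar carrier family (chr10:117733679-117746365, minus strand), was the third gene with a peak in each list, with 2, 2, 1 and 4 peaks. Its 3′ UTR held the only solute carrier place called in all 4 lists, and the 25 bases common to them hold no GGAC. There the score was 71.8 in DMSO Diff (rank 27 of 2944), but 11.2 in DMSO Pre, 7.78 in DMSO MCE and 7.03 in rhein MCE. A peak over the 5′ UTR, chr10:117746265-117746364, had the same span in DMSO MCE and rhein MCE, with a score of 7.52 (rank 2155 of 5128) in the former and 89.9 (rank 22 of 3069) in the latter. This was the highest Slc score of any list. Another 3′ UTR place, 134 bases past the CDS by its midpoint, scored 44.1 in rhein MCE (rank 103) and 6.55 in DMSO Pre. Hence 3 of the 4 Slc peaks with a score past 33.2 were in this gene, and each scored below 12 wherever another list held the place. The last rhein peak, of score 7.25, lay on a transcript of the gene without a CDS.

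Slc38a10, an amino acid carrier of the system A and N family (chr11:120103960-120151346, minus strand), was the fourth, with 1, 3, 3 and 3 peaks and scores from 5.52 to 10.2. A place just past its stop codon was called in the 3 DMSO lists with scores of 9.71 (Pre), 7.78 (MCE) and 5.86 (Diff), and not in the rhein list. A CDS stretch in its last exon was called in DMSO MCE (10.1), DMSO Diff (8.82) and rhein MCE (10.2). As with Slc5a3, the place at or near the stop codon was listed in each DMSO list and not with rhein, where another place of the gene was listed. Slc2a1 differed from both, since its stop codon place was listed with rhein, as were those of Slc39a14, Slc35b3 and Slc35b4 described below.

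**Figure D2:**
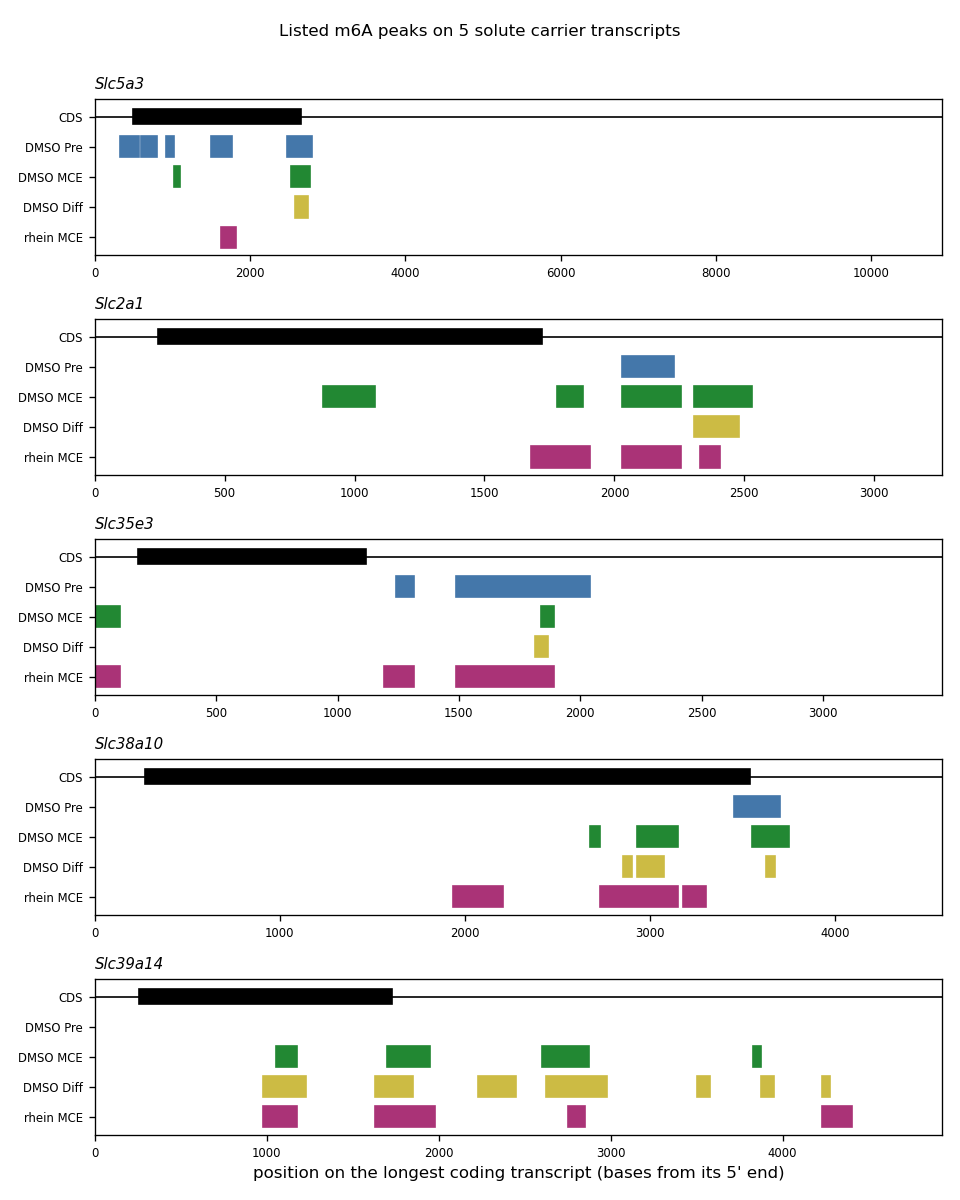
Listed peaks on the longest coding transcript of 5 solute carrier genes, by position in bases from the 5′ end, with the CDS as a black bar and 1 row of coloured bars per list. The Slc5a3 stop codon carries a peak in the 3 DMSO lists only, Slc35e3 has a peak at its 5′ end in DMSO MCE and rhein MCE, and Slc39a14 has none in DMSO Pre. The rhein peak of Slc35e3 on a transcript without a CDS is not drawn.

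The metal carriers held 29 peaks, in 5 of 32 genes (15.6%, 6.86 to 31.8, against 16.6%). Of these, 15 were in Slc39a14 (ZIP14), which takes up zinc, iron and manganese (chr14:70303469-70351425, minus strand). It was the gene with the most peaks, 0, 4, 7 and 4 in list order, so that DMSO Pre had none. The peaks ran from the CDS to 2588 bases past it, with scores from 4.498 to 13.7. At 3 places, those of the windows shown above, DMSO MCE, DMSO Diff and rhein MCE each held a peak. At the CDS place the scores were 6.81, 10.3 and 13.7 in that order, at the stop codon they were 10.6, 9.86 and 4.498, and at the distal place they were 11.5, 6.37 and 8.91. No order of the lists held at all of them.

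Slc39a1 (ZIP1), a zinc importer of the cell surface, had 2, 3, 0 and 3 peaks in list order, 7 of them listed under the neighbour Crtc2. Its scores ran from 5.67 to 8.26. Slc39a7 (ZIP7), which releases zinc from the endoplasmic reticulum, had a peak at the 5′ UTR with scores of 8.86 (DMSO Diff) and 14.8 (rhein MCE) and peaks at the 3′ UTR with scores of 5.62 (DMSO Pre) and 6.40 (DMSO Diff). The 3′ UTR peaks also lay in exons of Gm20427, an overlapping noncoding gene on the same strand, so these cannot be assigned to one of the genes. Slc30a5 and Slc39a13, zinc carriers of the secretory pathway, each had 1 peak, in DMSO MCE.

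Among the carriers of amino acids and peptides, 10 of 80 genes had a peak (12.5%, 6.93 to 21.5, against 16.6% of coding genes). The counts were 5, 6, 4 and 6 genes in DMSO Pre, DMSO MCE, DMSO Diff and rhein MCE. Slc38a2 (SNAT2), the amino acid importer induced by starvation, had peaks in DMSO Pre, DMSO MCE and rhein MCE. Its rhein peak, in the 3′ UTR 313 bases past the CDS, scored 17.1 (rank 396 of 3069), the third of the rhein list among Slc peaks, and overlapped none of its DMSO peaks. Slc7a5 (LAT1), the carrier of large neutral amino acids, had a 3′ UTR peak in DMSO MCE (7.47) and at the same place in rhein MCE (4.89). Its partner chain Slc3a2 (CD98) had 1 CDS peak, in DMSO Pre (7.52). Slc1a5 (ASCT2), a glutamine carrier, had 2 peaks, both in DMSO Diff (6.94 and 5.94), and Slc6a6, the taurine carrier, had 1 in rhein MCE (8.19), the only Slc gene with a peak in the rhein list alone. The other genes of the class were Slc43a3, a purine nucleobase carrier with a peak in each DMSO list, Slc7a6, an exchanger of basic and neutral amino acids, and Slc6a8, the creatine carrier. Slc7a6 had 1 peak in DMSO MCE, on a transcript without a CDS, and 1 in rhein MCE, and Slc6a8 had 1 in DMSO Pre (4.55).

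Slc15a3, a peptide and histidine carrier of lysosomes, had 2, 1 and 4 peaks in DMSO MCE, DMSO Diff and rhein MCE, but these calls are uncertain. All 7 lay on a retained-intron transcript and began between 132 and 732 bases past the end of the gene's coding transcripts. All touched exons of Tmem132a on the other strand, the symbol the lists gave them. Whether the libraries kept strand was not given in the sources used here, so the genes cannot be told apart. Only 1 other Slc peak, at the 5′ UTR of the acetyl-CoA carrier Slc33a1 in DMSO MCE (5.70), touched an exon of a gene on the other strand. DMSO MCE also listed a peak on that other strand at nearly the same span, chr3:63964158-63964257 (5.62), in the noncoding gene Gm26850. The Slc33a1 call is therefore uncertain as well.

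The carriers of nucleosides and nucleotide sugars had a peak in 8 of 34 genes (23.5%, 12.4 to 40.0), and the mitochondrial carriers (family 25) in 11 of 47 (23.4%, 13.6 to 37.2). These were the highest shares among the classes with at least 10 genes, and their intervals included the 16.6% of all coding genes. The nucleotide sugar group was spread over 1, 6, 6 and 4 genes in DMSO Pre, DMSO MCE, DMSO Diff and rhein MCE. Slc35b2 and Slc35b3 bring the sulfate donor PAPS into the Golgi. Slc35b3 had 1 peak across its stop codon in each of DMSO MCE (7.48), DMSO Diff (10.4) and rhein MCE (6.83), on a transcript of 10 exons. Slc35b2 had 0, 1, 2 and 0 peaks in list order, next to its stop codon. Slc35b4, a carrier of UDP-xylose and UDP-N-acetylglucosamine, had 4 peaks in DMSO MCE and 1 in rhein MCE, where the stop codon peak scored 11.2 and 12.4. Slc35e1 had 3′ UTR peaks in DMSO MCE, DMSO Diff and rhein MCE, each listed under the neighbour Cherp. Slc29a1 and Slc29a3, the nucleoside carriers ENT1 and ENT3, had 1 peak each, both in the 3′ UTR in DMSO Diff.

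Of the 11 mitochondrial carriers, 2, 8, 3 and 2 had a peak in list order, and 8 had it in 1 list only. Slc25a4 (ANT1), which exchanges ADP for ATP, had a 3′ UTR peak close to its stop codon in DMSO Diff (32.3, rank 107 of 2944) and rhein MCE (12.3). Slc25a3, which brings in phosphate, had one at a similar place in DMSO MCE (16.9, rank 292 of 5128) and DMSO Diff (8.05). Neither peak pair held a GGAC. Slc25a51, the NAD+ carrier, had CDS peaks in DMSO Pre, DMSO MCE and rhein MCE, of which those of DMSO MCE and rhein MCE overlapped. Slc25a1, which exports citrate for fatty acid synthesis, had 1 peak in DMSO Pre with a score of 4.67, rank 2651 of 2824. Slc25a30 had 1 in DMSO Diff (9.04), listed under Cog3. The peaks of Slc25a37 and Slc25a47 were on transcripts without a CDS, and that of Slc25a47 lay upstream of its coding transcripts.

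The carriers of inorganic ions had a peak in 6 of 61 genes (9.84%, 4.59 to 19.8, against 16.6%), with 2, 4, 1 and 0 genes in list order. Slc20a1, a phosphate importer, had 2 peaks in DMSO Pre (4.26 and 4.38), at the lowest end of the list. Slc4a7, a sodium bicarbonate cotransporter, had a 3′ UTR peak in DMSO Pre of score 13.8, the third of that list among Slc peaks, under the symbol Nek10. The cation chloride cotransporters Slc12a2, Slc12a4 and Slc12a7 each had 1 peak in DMSO MCE, that of Slc12a4 under the symbol Lcat.

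Monocarboxylate and organic ion carriers had a peak in 3 of 48 genes (6.25%, 2.15 to 16.8, against 16.6%). Slc16a1 (MCT1), the lactate and pyruvate carrier, had a peak over the last part of its CDS in DMSO MCE (13.3, rank 516 of 5128) and rhein MCE (8.999, rank 1148 of 3069). Slc16a13 and Slc22a23 had 2 peaks each, in DMSO MCE. Of the remaining classes, Slc44a2, a choline transporter-like protein, had 1 peak in DMSO Diff (15.6, rank 352 of 2944), the third of that list among Slc peaks. Slc33a1 had 1 in DMSO MCE, of uncertain strand.

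**Figure D3:**
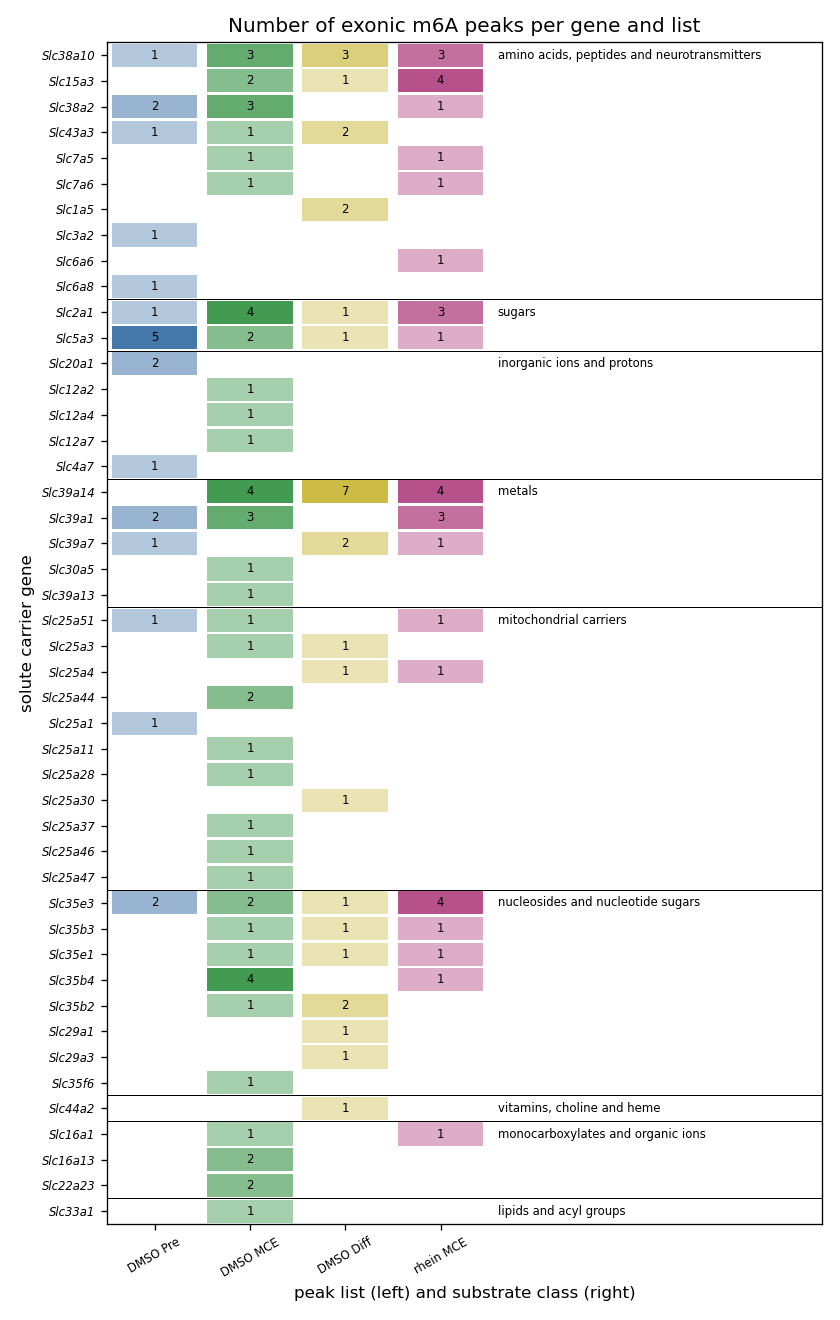
Number of exonic m6A peaks (figure in each cell) of 46 of the 47 solute carrier genes with at least 1, by distinct list and grouped by substrate class, with darker cells for more peaks. Slc2a1, Slc5a3, Slc35e3 and Slc38a10 have cells in each of the 4 lists, and 15 genes have a cell only in DMSO MCE, the longest list.

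A list of 35 transporters known from 3T3-L1 cells, adipocytes and growing fibroblasts was also looked up. Of these, 16 had a peak in any list (45.7%, 30.5 to 61.8), against 16.6% of coding genes, and in list order 7, 8, 7 and 7 had one. These were 20%, 22.9%, 20% and 20% of the 35, against 6.89%, 12.5%, 6.69% and 7.45% of coding genes. The genes were picked as transporters known to be expressed in such cells and with earlier results in view, and expression was not measured here. The other 19 had none: Slc2a4, Slc1a4, Slc7a1, Slc7a11, Slc38a1, Slc43a1, Slc36a1, Slc16a3, Slc20a2, Slc30a1, Slc11a2, Slc40a1, Slc41a1, Slc25a5, Slc25a20, Slc27a1, Slc27a4, Slc35a4 and Slc19a2. Among them are the fatty acid carriers Slc27a1 and Slc27a4, the cystine carrier Slc7a11 and the carnitine carrier Slc25a20.

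Next came the question of which genes kept a peak between lists. Of the 47 genes, 26 had a peak in 1 list (55.3%, against 45.01% of the coding genes with a peak), 8 in 2 (17.02% against 23.6%), 9 in 3 (19.1% against 15.97%) and 4 in all 4 (8.51% against 15.5%). The latter are 1.11% of all Slc genes, against 2.56% of coding genes. The 13 genes of 3 or 4 lists held 90 of the 141 peaks. Of the genes in 1 list, 15 were in DMSO MCE, 5 in DMSO Pre (Slc20a1, Slc25a1, Slc3a2, Slc4a7, Slc6a8), 5 in DMSO Diff (Slc1a5, Slc25a30, Slc29a1, Slc29a3, Slc44a2) and 1 in rhein MCE. This split was not made over all coding genes. DMSO MCE was the longest list and also had the most coding genes with a peak, with 1512, 2741, 1468 and 1635 in list order.

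DMSO Pre had a lower share of carrier peaks in common with each other list than was found over all peaks. With DMSO MCE it was 31.8% (16.4 to 52.7) of the DMSO Pre peaks against 45.3%. With rhein MCE it was 22.7% (10.1 to 43.4) against 36.3%. The other way it was 14.5% (7.56 to 26.2) against 25.2% and 18.2% (8.61 to 34.4) against 33.7%. Each of these intervals included the share of all peaks. By gene, 57.1% of the DMSO Pre genes also had a peak in rhein MCE, against 56.7% of coding genes, and conversely 44.4% against 52.4%. With DMSO MCE the gene shares were 57.1% against 72.0% and conversely 23.5% against 39.7%. Of the 19 Slc genes of DMSO Diff, 6 also had a peak in DMSO Pre (31.6%, 15.4 to 54.0), against 55.5% of coding genes, and these were 6 of the 14 genes of DMSO Pre (42.9%, against 53.9%, which lies in the interval of 21.4 to 67.4). Among peaks, 4 of 31 in DMSO Diff overlapped one in DMSO Pre by at least 1 exonic base (12.9%, 5.13 to 28.9), against 36.7% of all placed peaks, and conversely 4 of 22 (18.2%, 7.31 to 38.5) against 38.4%. Between DMSO MCE and DMSO Diff the Slc share was near that of all peaks, with 14 of 55 (25.5%) against 26.3% one way and 14 of 31 (45.2%) against 46.6% the other. Slc39a14, Slc35b3 and Slc35e1, and Slc15a3 with its uncertain calls, had places called in all 3 of the other lists and none in DMSO Pre.

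With rhein, 15 of the 18 Slc genes also had a peak in DMSO MCE (83.3%, 60.8 to 94.2), against 76.3% of coding genes. They were 15 of the 34 genes of DMSO MCE (44.1%, 28.9 to 60.5), against 45.5%. The 3 genes with a peak in rhein MCE and not in DMSO MCE were Slc25a4, Slc39a7 and Slc6a6. Of the 33 rhein peaks, 20 overlapped one of DMSO MCE (60.6%, 43.7 to 75.3, all peaks 53.7%) and 12 one of DMSO Diff (36.4%, 22.2 to 53.4, all peaks 37.9%). The 19 genes of DMSO MCE without a rhein peak included the 15 listed in no other list and Slc25a3, Slc35b2 and Slc43a3. For Slc43a3 this rests on the placement rule. A rhein peak under its symbol, chr2:84936579-84936804 (score 12.3), begins at the gene's first base but did not have both ends in exons of 1 transcript. When 1 exonic base of the span was enough, rhein MCE had 19 Slc genes, and 5 had a peak in every list.

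When overlapping peaks of a gene were joined, 92 places remained. Of these, 61 were in 1 list, 18 in 2, 12 in 3 and 1 in all 4. Identical spans recurred in 2 distinct lists at 3 places, in Slc15a3, Slc2a1 and Slc35e3, and in no case in 3. They were not counted over all genes either.

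Where the peaks lay on the transcript was compared over peaks on coding transcripts, 22, 50, 30 and 28 in the 4 lists. In list order, the 3′ UTR held 40.9% (23.3 to 61.27), 56% (42.3 to 68.8), 73.3% (55.6 to 85.8) and 57.1% (39.1 to 73.5) of them. For all peaks this share was between 39.3% and 40.7% in each list, so the Slc peaks of DMSO MCE and DMSO Diff were more often in the 3′ UTR, with intervals that began above it. On the carriers' own transcripts the 3′ UTR made up 51.4%, 50.8%, 42.7% and 54.2% of the possible positions, and only in DMSO Diff did the interval lie above that. The CDS held 50%, 38%, 20% and 35.7%, against 54.2%, 53.3%, 54.2% and 51.8% of all peaks. The 5′ UTR held 2, 3, 2 and 2 peaks (9.09%, 6%, 6.67% and 7.14%), against 5.53%, 7.32%, 5.97% and 7.56% of all peaks. Peaks of 1 gene are not independent, which the intervals do not cover. In DMSO MCE 4 of the 28 3′ UTR peaks were in Slc35b4, and in DMSO Diff 6 of the 22 were in Slc39a14.

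The midpoint was no more than 200 bases from the last base of the CDS in 18.2% (7.31 to 38.5), 40% (27.6 to 53.8), 43.3% (27.4 to 60.8) and 35.7% (20.7 to 54.2) of the Slc peaks. All peaks gave 21.3%, 24.4%, 23.5% and 22.6%. The last exon held 68.2% (47.3 to 83.6), 82% (69.2 to 90.2), 86.7% (70.3 to 94.7) and 82.1% (64.4 to 92.1), against 57.8%, 59.9%, 58.4% and 60.2% of all peaks. For both measures the share expected on the carriers' own transcripts was not worked out. Exons at Slc peaks were longer, with a median of 2077 bases against 1319 over all placed peaks, and the part this plays was not tested.

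**Figure D4:**
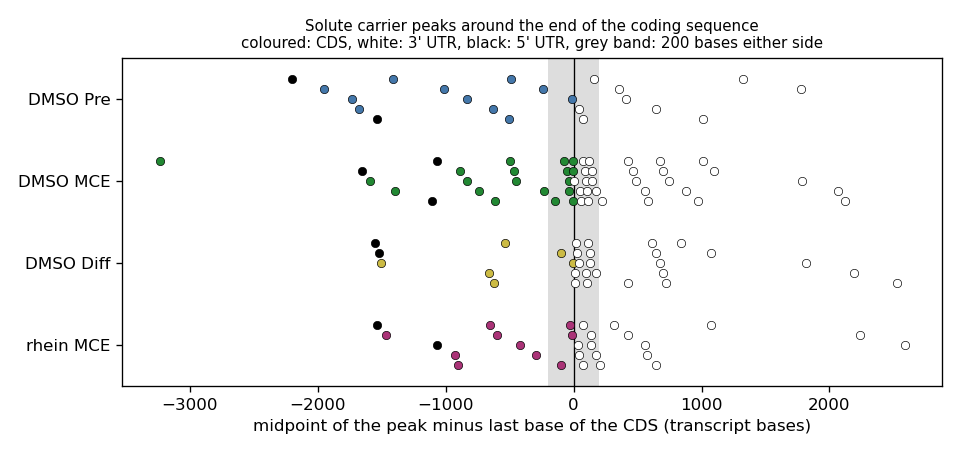
Distance in transcript bases from the last base of the CDS to the midpoint of each Slc peak on a coding transcript, by list. Points are peaks, coloured in the CDS, white in the 3′ UTR and black in the 5′ UTR, and the grey band marks 200 bases either side, which holds 18.2% of the DMSO Pre peaks but 40% of those of DMSO MCE.

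GGAC on the transcript strand was in 68.2% (47.3 to 83.6), 66% (52.2 to 77.6), 53.3% (36.1 to 69.8) and 75% (56.6 to 87.3) of the Slc peaks in list order. Windows of the same lengths anywhere on the carriers' own transcripts held it in 38.1%, 40.2%, 37.9% and 44.98%, and all peaks in 56.5%, 55.1%, 52.6% and 55.9%. Its reverse complement GTCC, which is no m6A motif, was in 54.5%, 38%, 40% and 32.1% of the Slc peaks, against 39.8%, 40.2%, 36.4% and 44.5% of such windows. In DMSO MCE and rhein MCE the GGAC interval lay above the GTCC share and above the share of the windows. In DMSO Pre and DMSO Diff the GTCC share lay inside the GGAC interval. Of the 141 peaks in all, 94 held a GGAC.

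Counting carriers by the symbol of the lists would have given other genes. An Slc symbol stood on 24, 73, 40 and 38 peaks in DMSO Pre, DMSO MCE, DMSO Diff and rhein MCE, but 13, 44, 25 and 24 of them lay in exons of that gene. The other 11, 29, 15 and 14 lay elsewhere, 10, 26, 13 and 10 of them in exons of another gene and 6, 12, 6 and 9 on the strand opposite to the named one. Of the peaks elsewhere, these scored highest. A peak named Slc44a3 scored 133 in DMSO Pre (rank 4 of 2824) and lay in the 3′ UTR of Cnn3, a calponin of the actin cytoskeleton. One named Slc14a2 scored 50.04 in DMSO MCE and lay in the noncoding gene Gm26430. One named Slc41a2 scored 45.2 in DMSO Diff and lay in the 3′ UTR of Chst11, a chondroitin sulfotransferase. Conversely, 9, 11, 6 and 9 peaks in exons of Slc genes were listed under a neighbour. In 6 genes this held for each peak: Slc5a3 under Mrps6, Slc15a3 under Tmem132a, Slc35e1 under Cherp, Slc4a7 under Nek10, Slc12a4 under Lcat and Slc25a30 under Cog3.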

How the data were processed

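The 10 MeRIP-seq libraries came from 5 conditions of 3T3-L1 cells, an IP and an input each. As the study's methods state, the authors trimmed the reads, aligned them to mm10, removed duplicates and called peaks with exomePeak2. The submitters' processing notes name Trim Galore 0.6.5, HISAT2 2.1.0, Picard 2.23.5, SAMtools 1.9 and ChIPseeker 1.26. Each deposited list held 1 score per peak, headed as a log2 fold change, whose lowest values equal adjusted p-values of 0.0500 to 0.0549 when read as minus log2. Which IP and input entered each call, and the read numbers, were not given in the sources used here.

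Peaks were placed anew on GENCODE M21 (GRCm38, which is mm10), with both ends in exons of 1 transcript of the same strand, coding transcripts first and then the longest. This placed 97.6%, 97.0%, 96.5% and 97.0% of the peaks in DMSO Pre, DMSO MCE, DMSO Diff and rhein MCE. A peak's place was that of its midpoint, sharing required 1 exonic base on the same strand, and printed sequence came from the GENCODE M21 transcripts. Of the 141 Slc peaks, 140 spanned an exonic length in whole steps of 25 bases, as exomePeak2 bins transcripts. For a peak inside 1 exon this holds whatever the annotation. The exon model was therefore checked only by the peaks across a splice junction, 2, 4, 1 and 2 in list order. The exception, an Slc25a1 peak of 71 exonic bases in DMSO Pre, lay across a junction. Substrate classes followed the Slc family number.

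Genes named were those with a peak in every distinct list, those of the 3 highest-scoring Slc peaks of each list, those whose peaks always carry another symbol, the 3 highest-scoring peaks under an Slc symbol outside its exons, and 35 transporters known from these cells. Any other was named after its values were seen. The genes and lists were chosen with earlier results of these data known. Alternatives were lists of equal length, a stricter score, other overlap and placement rules, other motif and stop codon windows and, added after seeing the data, coding transcripts only. Scripts ran in Python 3.11.15 with NumPy 2.4.6, SciPy 1.17.1 and Matplotlib 3.10.9, and the placement and overlap steps were tested on simulated data. The values of 1 gene are not reported here.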

Additional observations from a re-analysis of the deposited data

Results flagged for a closer look

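In the full lists, some differences between rhein and DMSO had opposite signs at the MCE and the differentiation stage. None was tested, since each condition had 1 IP, and the rhein lists of both stages were nearly the same list, so the difference between stages rests on the DMSO lists. The number of Slc peaks was lower by 22 with rhein at MCE (a difference of -22) and higher by 2 at Diff. The CDS share of Slc peaks differed by -2.29 percentage points at MCE and by 15.7 at Diff, and the 3′ UTR share by 1.14 and -16.2 percentage points. Among metal carriers the number of genes with a peak differed by -1 and 1, and among monocarboxylate and organic ion carriers by -2 and 1. The list lengths (5128 peaks for DMSO MCE, 2944 for DMSO Diff, 3069 for rhein MCE) moved with the counts. With each list cut to 2824 peaks, the difference in Slc peaks became -3 at MCE and -1 at Diff, that in the CDS share 7.18 and 21.7 percentage points, and that in the 3′ UTR share -8.62 and -23.3. These then had the same sign at both stages, and metal carriers differed by 0 and 1. Monocarboxylate and organic ion carriers still differed in sign, by -1 and 1 gene.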

How the results depend on the processing

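With 1 IP and 1 input per condition there was no replicate to leave out, and no paired analysis was possible because no result comes from a test. Depth was unknown, so counts of peaks may follow reads as well as methylation. Keeping a score past 33.2, an adjusted p-value of 1e-10, left 1 gene and 1 peak in DMSO Pre, 0 genes and 0 peaks in DMSO MCE, 1 gene and 1 peak in DMSO Diff, and 1 gene and 2 peaks in rhein MCE. At equal list length (2824 peaks), DMSO MCE kept 32 of 55 Slc peaks, 62.5% of which were shared with another list, and the share of lipid carriers with a peak became 0. When sharing needed 50% of both peaks, the share held in another list was 41.9% in DMSO Diff and 51.5% in rhein MCE. By the part given in the deposited lists, the 3′ UTR held 70% of the Slc peaks of DMSO MCE. A limit of 100 bases around the CDS end gave 26% (DMSO MCE) and 26.7% (DMSO Diff). Each other value under these settings stayed within its counting interval or within 1.5 times its count, 44 of 47 at equal list length, except in 3 sharing shares between pairs of lists. Counting by deposited symbol gave 19, 47, 26 and 23 genes in DMSO Pre, DMSO MCE, DMSO Diff and rhein MCE, and coding transcripts only gave 14, 30, 18 and 17.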

Other observations

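The exon at the midpoint of a peak had a median length of 2077 bases over the 141 solute carrier peaks and 1319 over all placed peaks. The 47 carriers with a peak had a median exonic length of 3489 bases on their longest coding transcript, the 314 without had 3155.5, all protein-coding genes had 2713 and those with a peak 3712.5. A splice junction was inside 9.09%, 8%, 3.33% and 7.14% of the Slc peaks in DMSO Pre, DMSO MCE, DMSO Diff and rhein MCE, against 11.7%, 11.5%, 14.8% and 13.6% of all peaks.

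By family the counts of genes with a peak stand beside 13.02% of all Slc genes and 16.6% of coding genes, and most families are too small to be set apart from these shares. Family 26, the anion exchangers, had 0 of 11 genes with a peak and family 17, phosphate and vesicular glutamate carriers, 0 of 9, while family 39, the zinc importers, had 4 of 14 genes with 28 peaks and family 35 had 6 of 27 with 24 peaks. Family 22, the organic ion carriers, had 1 of 25.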
